A study of Mus musculus with 103 samples.

Results

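The 10 genes described here encode hormones and granule proteins of the endocrine cells of the gut: gastrin (Gast), ghrelin (Ghrl), glucose-dependent insulinotropic polypeptide (Gip), proglucagon (Gcg), cholecystokinin (Cck), somatostatin (Sst), secretin (Sct), peptide YY (Pyy), chromogranin A (Chga) and chromogranin B (Chgb). They were chosen by name, and each was read by 1 probe set among 17097 genes measured on mouse expression arrays, 1 array per sample. The study profiled cells sorted from mouse organs with microbeads against Prominin1, the product of Prom1, and tumours dissected from mice. The gut groups were gastric adenoma (n = 7), gastric adenocarcinoma (n = 4), its liver and abdomen metastases (n = 1 each) and sorted stomach cells (n = 2), then small intestinal adenoma from the duodenum (n = 3), large intestinal adenoma from the colon (n = 5) and sorted small intestine cells (n = 3). Outside the gut, 77 samples held the sorted cells of kidney (n = 4), liver (untreated, n = 5, after DDC, n = 9, and neonatal, n = 3), uterus (n = 4), lung (n = 4), salivary gland (n = 3) and prostate (n = 3), together with other tumours. Those tumours were prostatic adenocarcinoma (n = 8), hepatoblastoma (n = 2), the mixed class of hepatocellular carcinoma/cholangiocarcinoma (n = 14, HCC/CC below), uterine carcinoma (n = 3), bronchopulmonary adenocarcinoma (n = 2), perineal (n = 4), perioral (n = 3) and periorbital (n = 1) squamous cell carcinoma, and 5 metastases of HCC/CC, hepatoblastoma and uterine carcinoma. The design text names lineage tracing and an oncogenic change targeted to cells that express Prom1. The labels used here give no strain, allele, age beyond neonatal or oncogenic event for any tumour. They do not say which samples came from separate mice, so every p-value measures the spread between these samples, which may in part be technical.

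Endocrine cells are scattered singly through the lining of the stomach and intestine and release peptides into the blood after a meal or during fasting. They have classically been named by their main product: G cells of the gastric antrum make gastrin, D cells make somatostatin, K, I and S cells of the upper intestine make Gip, Cck and secretin, and L cells, commonest towards the colon, make proglucagon peptides and peptide YY. Chromogranins are acidic proteins of the secretory granule that nearly all these cells share, and they serve as general endocrine markers.

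Levels are log2 values as deposited. The array medians lay between 3.82 and 4.24, and a value of 4.10, the 40th percentile of all values (the filter value), serves below as a guide to background. A level near or under it carries little signal, so the size of a difference against such a level is uncertain, and levels of different genes are not set against each other because each comes from its own probe set. In bulk samples, fewer cells of a type and less RNA of a gene per cell cannot be told apart. Prom1 was at 12.19 and 11.78 in stomach cells and 8.02, 9.78 and 10.19 in small intestine cells. Sorted cells and dissected tumours were extracted with different kits, so sorting, kit and tumour cannot be told apart in any comparison of tumour with sorted cells. The log2 signal at the 3′ minus the 5′ end of the actin controls averaged 0.70 in gastric adenoma, 0.61 in gastric adenocarcinoma, 0.59 in small intestinal adenoma and 0.59 in large intestinal adenoma, against 1.09 in stomach cells and 0.99 in small intestine cells, and its part in the results was not tested.

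The promoters of 4 members on which the results turn are shown first, because gastrin and somatostatin were highest in sorted stomach cells and the chromogranins were both high in a liver metastasis. In RefSeq (GRCm38.p6), Gast, Gip and Pyy lie on chromosome 11, Gcg and Chgb on 2, Ghrl on 6, Sct on 7, Cck on 9, Chga on 12 and Sst on 16. Each runs from 250 bases before to 50 bases after a listed start, 5′ to 3′ on the gene's strand. Capitals mark TATAAA, the TATA box, or TGACGTCA, the palindromic cAMP response element, searched on both strands.
Gast: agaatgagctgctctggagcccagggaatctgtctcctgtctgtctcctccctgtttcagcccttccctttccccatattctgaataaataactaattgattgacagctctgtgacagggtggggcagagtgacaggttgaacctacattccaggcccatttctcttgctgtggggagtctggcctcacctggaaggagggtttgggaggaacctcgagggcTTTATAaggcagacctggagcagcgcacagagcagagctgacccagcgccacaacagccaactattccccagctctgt
Sst: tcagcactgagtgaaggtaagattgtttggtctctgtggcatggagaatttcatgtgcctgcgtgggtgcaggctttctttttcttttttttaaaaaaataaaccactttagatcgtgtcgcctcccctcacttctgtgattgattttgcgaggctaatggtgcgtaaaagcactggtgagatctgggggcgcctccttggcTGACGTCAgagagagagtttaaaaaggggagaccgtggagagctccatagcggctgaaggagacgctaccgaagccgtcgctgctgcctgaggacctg
Chga: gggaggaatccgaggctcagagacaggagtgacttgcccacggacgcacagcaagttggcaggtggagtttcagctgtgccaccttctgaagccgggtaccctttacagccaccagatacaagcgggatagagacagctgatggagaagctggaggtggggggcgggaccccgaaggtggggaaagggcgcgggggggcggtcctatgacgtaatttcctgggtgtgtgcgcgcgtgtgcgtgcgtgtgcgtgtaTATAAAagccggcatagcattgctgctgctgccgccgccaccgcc
Chgb: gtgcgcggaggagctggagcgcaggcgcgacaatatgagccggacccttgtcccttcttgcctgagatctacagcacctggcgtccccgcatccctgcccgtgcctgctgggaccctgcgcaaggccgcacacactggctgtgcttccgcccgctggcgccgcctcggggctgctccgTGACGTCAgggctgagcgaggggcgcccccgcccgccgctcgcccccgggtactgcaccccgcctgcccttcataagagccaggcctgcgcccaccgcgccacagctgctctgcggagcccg
These windows lie at chr11:100334157-100334456 (plus strand) for Gast, chr16:23890795-23891094 (minus strand) for Sst, chr12:102554691-102554990 (plus strand) for Chga and chr2:132781392-132781691 (plus strand) for Chgb. TATAAA, read on the reverse strand, begins 28 bases before the Gast start, and in Chga it begins 5 bases after the listed start. TGACGTCA begins 48 bases before the Sst start and 72 bases before the Chgb start. All 10 members had a promoter in the table, 14 promoters in all: 4 genes held TATAAA (Gast, Gcg, Sct and Chga), against 13.62% of 32851 mouse promoters of the same length, and 2 held TGACGTCA (Sst and Chgb), against 1.79%. Members are counted here by gene and the background by promoter, so these figures are not like for like. A match is a description of these letters, not of a bound site.

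Above background, the 10 genes were found mainly in gut samples. Gast, Ghrl, Gip, Gcg, Sst, Pyy and Chga never reached 1 log2 unit above the filter value in any of the 77 samples outside the gut. Gast, for example, ranged there from 2.47 to 3.91, Sst from 2.94 to 4.47 and Chga from 2.52 to 4.09. Within the gut, the highest group means of Gast and Sst were in sorted stomach cells, those of Gip, Cck, Gcg and Sct in sorted small intestine cells, that of Pyy in large intestinal adenoma and that of Ghrl in gastric adenoma. Many of these genes were shared between groups: Ghrl overlapped between gastric adenoma and stomach cells, Gcg and Sct between small intestine cells and large intestinal adenoma, and Chgb averaged 9.57 in large intestinal adenoma, 8.76 in gastric adenoma, 10.95 in stomach cells and 9.96 in small intestine cells. Gastric adenocarcinoma had group means of 2.68 to 3.57 for the 10 genes, and its abdomen metastasis, with levels of 2.51 to 3.81, was likewise under the filter value for all 10.

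**Figure D1:**
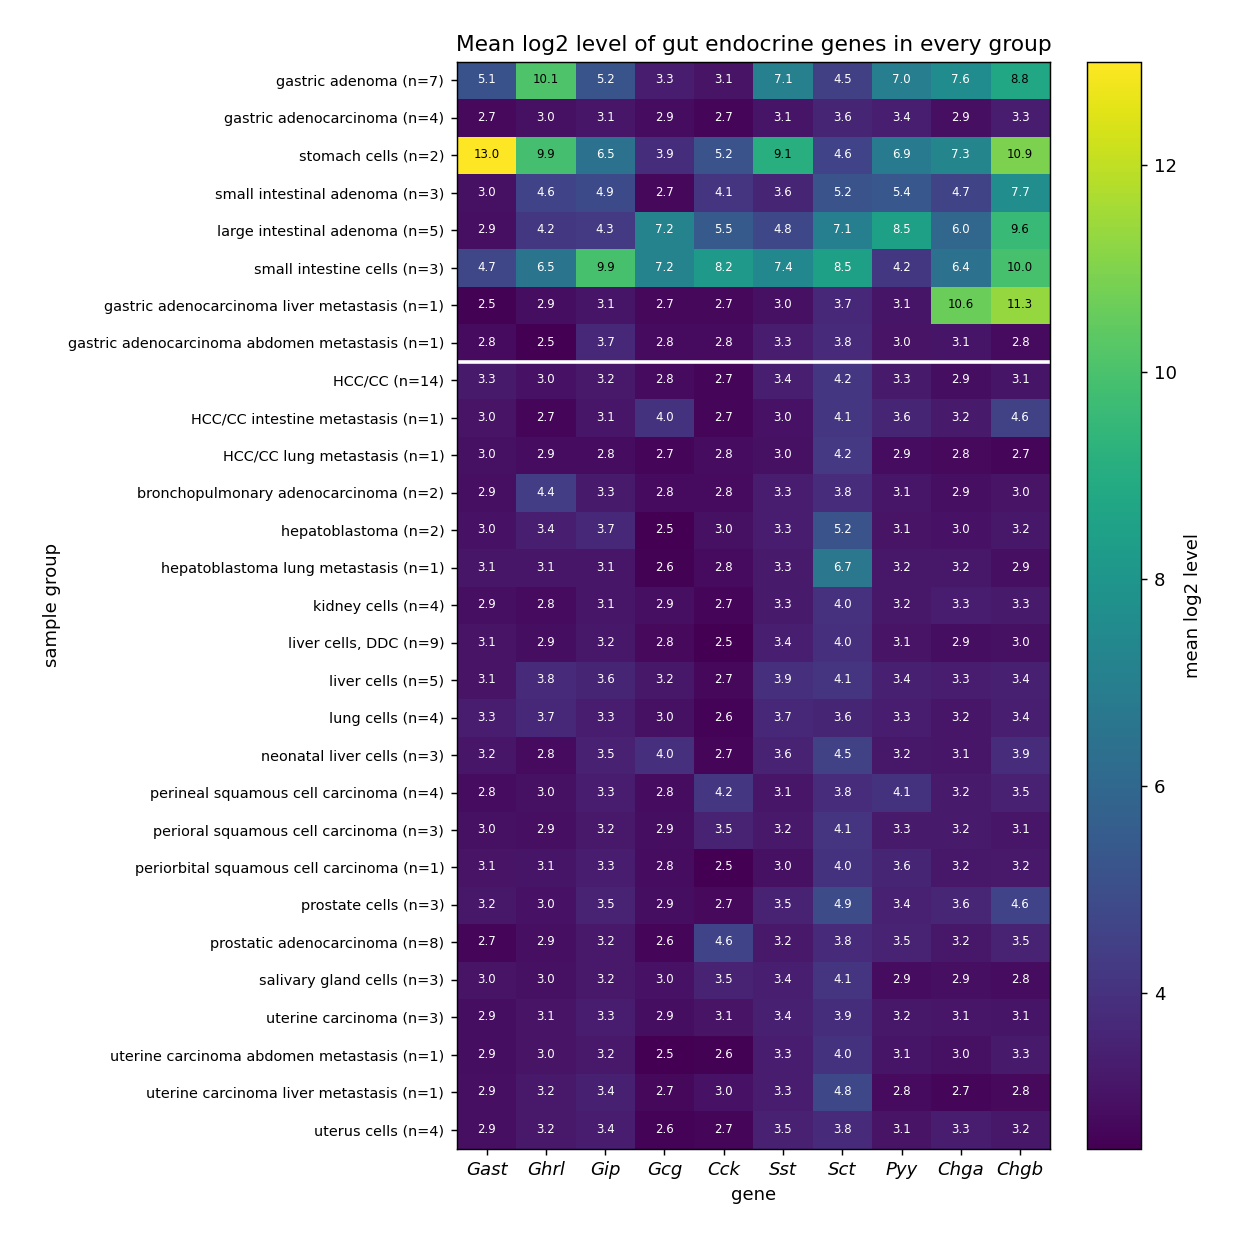
Mean log2 level of each of the 10 genes (columns) in each of the 29 groups (rows, with n), gut groups above the white line. Colour and the printed value both give the mean: Gast reaches 13.03 in stomach cells, whereas rows below the line stay dark apart from Cck, Sct and Chgb in a few groups.

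Sorted stomach cells carried the gastrin, ghrelin and somatostatin genes at high levels. Gast, the acid-stimulating hormone of the antrum, was at 13.49 and 12.56 in the pair of stomach samples, against a mean of 3.31 over the 7 other sorted organs (kidney, untreated liver, lung, prostate, salivary gland, small intestine and uterus), a difference of 9.72 ± 0.33 (SE, adjusted p = 1.9e-22). Ghrl, the appetite-stimulating hormone of the stomach body, was at 10.42 and 9.39 (difference 6.20 ± 0.28 SE, adjusted p = 5.3e-19), and Sst, which restrains gastrin and acid release, was at 8.97 and 9.29 (difference 5.04 ± 0.25 SE, adjusted p = 6.9e-18). Both stomach samples stood above every sample of the other sorted organs for these 3 genes, but how many of all genes did so was not counted. The granule proteins were also higher in stomach cells, with Chgb at 11.39 and 10.50 (difference 6.57 ± 0.33 SE, adjusted p = 1.4e-17) and Chga at 7.04 and 7.49 (difference 3.55 ± 0.21 SE, adjusted p = 9.5e-16), although Chgb in small intestine sample 3, at 10.68, was above stomach sample 2.

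The remaining hormones separated the pair of stomach samples from each other. Gip was at 9.09 in sample 1 and 3.84 in sample 2, Cck at 6.96 and 3.43, and Pyy at 8.28 and 5.44. Sample 1 was the higher for all 3, and in sample 2 Gip and Cck were near background. Gip (2.16 ± 0.53 SE, adjusted p = 0.0023) and Cck (1.60 ± 0.35 SE, adjusted p = 0.00083) passed the test against the other organs, but without sample 1 the differences turned to -0.46 for Gip and -0.17 for Cck and neither passed. Pyy (3.50 ± 0.36 SE, adjusted p = 1.8e-09) kept its call. Sample 1 also differed in other cell markers: the parietal cell proton pump genes Atp4a and Atp4b were at 6.92 and 8.43 in it, and at 11.11 and 12.76 in sample 2. The pancreatic acinar enzymes Cpa1, Cpb1 and Prss2 were at 8.32, 8.74 and 9.59 in sample 1, against 3.98, 4.07 and 2.90 in sample 2. The islet genes Ins2, G6pc2 and Slc30a8 were at 3.66, 3.23 and 2.98 in sample 1, all under the filter value. The part of the acinar genes in the level of Gip, Cck and Pyy was not tested.

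In all, 8 of the 10 members were higher in stomach cells, 0 were lower, and Gcg (0.32 ± 0.20) and Sct (-0.09 ± 0.34) did not pass, where 9.08% of 13107 genes tested were called higher and 19.1% in either direction. All 10 passed the filter on low values, most of them through the stomach or intestinal samples that carried them, so the count is no separate support. Without stomach sample 1 the count was 6. The median member difference was 3.53, against -0.02 over all genes tested. The prohormone processing and granule genes moved with them: of 10 tested, 9 rose, 0 fell and 1 did not pass, with a median of 2.26. Resp18, a dense-core granule protein, rose by 5.97 ± 0.29, the granule phosphatase-like protein gene Ptprn2 by 5.01 ± 0.21, Scg5, the chaperone of a prohormone convertase, by 3.58 ± 0.48 and the convertase gene Pcsk1 by 2.52 ± 0.36. Pcsk1 was at 7.47 and 3.76 in the pair of samples, so sample 1 alone carried it. Of the 9 tested genes listed as transcription factors of the endocrine lineage, 5 rose, 1 fell and 3 did not pass. Those that rose included Pdx1 (3.72 ± 0.22), which is also a factor of the duodenum, Foxa2 (3.69 ± 0.60) and Neurod1 (2.62 ± 0.31). Of the 9 regulated secretion genes tested, 4 rose, 0 fell and 5 did not pass.

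Sorted small intestine cells carried the hormones of the upper intestine. Gip, released by fat and glucose, was at 9.57, 10.12 and 10.10, Cck, which contracts the gallbladder, at 8.06, 8.72 and 7.69, and Sct, which releases bicarbonate from the pancreas, at 8.62, 8.89 and 7.96. All 3 samples were high for all 3 genes, and the differences against the 7 other sorted organs (here with stomach among them) were 6.13 ± 0.44 (SE, adjusted p = 8.8e-14) for Gip, 4.98 ± 0.29 (SE, adjusted p = 3.1e-16) for Cck and 4.33 ± 0.29 (SE, adjusted p = 9.6e-15) for Sct. Gcg, the source of the glucagon-like peptides in L cells, was at 6.82, 7.52 and 7.27 (difference 4.14 ± 0.16 SE, adjusted p = 2.4e-21), and Sst was at 6.55, 8.04 and 7.64 (difference 3.08 ± 0.21 SE, adjusted p = 1.7e-14). Pyy, the other L cell product, was at 4.05, 4.65 and 3.88, around the filter value, and did not pass (0.46 ± 0.30). Ghrl was at 6.05, 6.91 and 6.62 (difference 2.33 ± 0.23 SE, adjusted p = 4.1e-10), Chgb at 9.38, 9.83 and 10.68 (difference 5.44 ± 0.28 SE, adjusted p = 5.5e-18) and Chga at 6.54, 6.37 and 6.33 (difference 2.57 ± 0.17 SE, adjusted p = 1.9e-14).

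Gast was uneven in small intestine cells, at 5.13, 3.16 and 5.92, and did not pass (0.24 ± 0.28). The gastric surface genes were uneven in the same samples: Muc5ac, a gastric mucin, was at 6.33, 3.28 and 6.26 and Gkn2, a gastrokine, at 12.17, 9.38 and 11.92. Sample 2 was the lowest of the 3 for Gast, Muc5ac and Gkn2, and without it the Gast difference was 1.03 and passed. All 3 samples also held pancreatic acinar genes, with Cela2a, an elastase, at 10.83, 8.20 and 9.89, and the mean level of the 8 acinar markers measured ran from 6.16 to 8.45. The islet genes Ins2, at 3.98, 4.21 and 3.67, G6pc2, at 2.77, 2.68 and 2.70, and Slc30a8, at 2.77, 3.01 and 2.76, were at or near background beside these levels of Gcg and Sst. The part of gastric or pancreatic RNA in the hormone levels was not tested.

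Of the 10 members, 8 were higher in small intestine cells and 0 were lower, where 14.3% of genes tested were called higher and 29.4% in either direction. Gcg passed the filter only through small intestine cells, and most others only through the gut samples that carried them. The count is therefore no separate support. The median member difference was 3.61, against 0.03 over all genes. The granule genes did not move together here: of 10 tested, 2 rose, 2 fell and 6 did not pass. Scg2, secretogranin II, rose by 1.22 ± 0.35 and Ptprn2 by 1.20 ± 0.17, whereas the amidating enzyme gene Pam fell by 2.87 and the carboxypeptidase gene Cpe by 1.47. Of the 9 transcription factors tested, 4 rose, 2 fell and 3 did not pass: Pdx1 (4.41 ± 0.19) and Mlxipl (3.72 ± 0.61) rose, and Etv1 (-3.88 ± 0.53) and Hhex (-2.45 ± 0.35) fell. Tph1, the first enzyme of serotonin synthesis in enterochromaffin cells, was higher by 1.91 ± 0.24, and Ddc, the second enzyme, by 4.47 ± 0.45. Of the enterocyte markers, 10 of 10 tested were higher.

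Set against each other, stomach and small intestine cells divided the hormones. Gast (8.29 ± 0.41 SE, adjusted p = 3.7e-18), Ghrl (3.38 ± 0.34 SE, adjusted p = 1e-09), Pyy (2.67 ± 0.45 SE, adjusted p = 1.9e-05) and Sst (1.71 ± 0.31 SE, adjusted p = 5.2e-05) were higher in stomach cells. Sct (-3.87 ± 0.42 SE, adjusted p = 5.4e-09), Gip (-3.47 ± 0.65 SE, adjusted p = 0.00011), Gcg (-3.34 ± 0.24 SE, adjusted p = 1.5e-13) and Cck (-2.96 ± 0.43 SE, adjusted p = 1.9e-06) were lower. Chga (0.85 ± 0.26) and Chgb (0.98 ± 0.41) did not pass, although Chga did without stomach sample 1 (1.08) and Chgb without small intestine sample 3 (1.34). In all, 8 of 10 members were called in either direction, against a background of 16.7%. Gcg passed the filter only through small intestine cells and could come out only lower or not called, so the count is no separate support. The Gip difference rested on stomach sample 2, which was near background: without that sample it was -0.85 (adjusted p = 0.19), and in a fit of the compared groups alone its adjusted p was 0.081. Of the 10 granule genes tested, 7 rose, 0 fell and 3 did not pass, led by Resp18 (5.11 ± 0.36), Pam (4.49 ± 0.71) and Scg5 (3.60 ± 0.60).

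**Figure D2:**
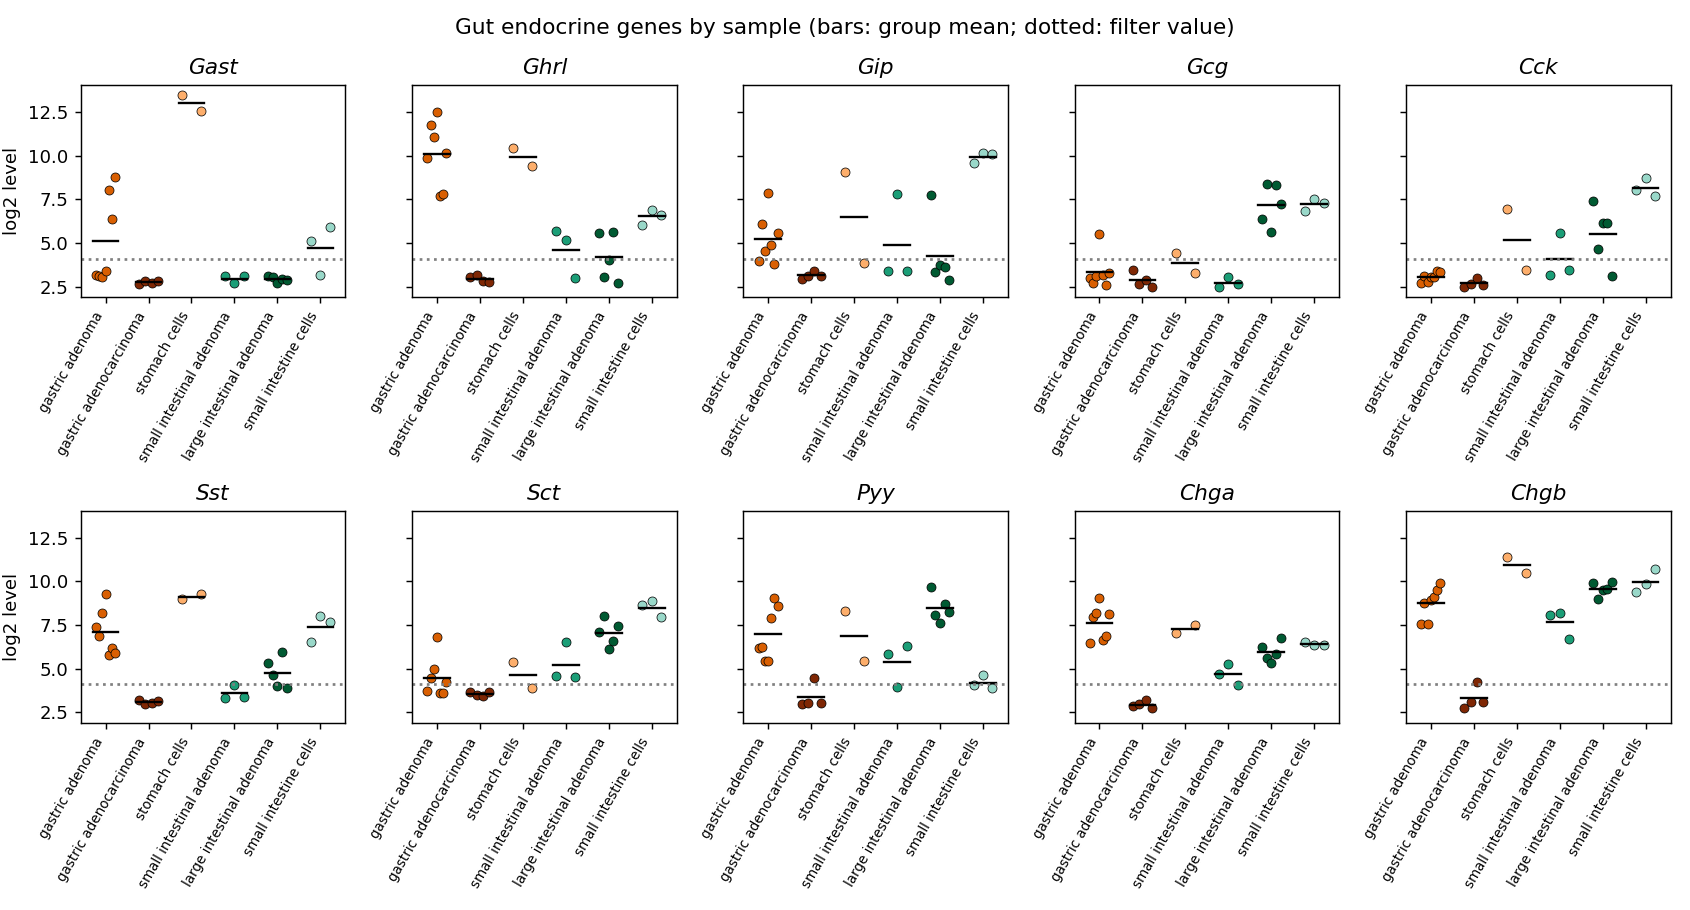
Log2 level of each gene in every sample of the 6 main gut groups, tumours to the left of the sorted cells of each organ (points: samples; bars: group mean; dotted line: filter value of 4.10). The 7 gastric adenomas spread from 3.05 to 8.78 for Gast and stay at or above 7.68 for Ghrl, whereas gastric adenocarcinomas lie near or under the line for every gene.

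Gastric adenomas carried endocrine genes, but not gastrin in every tumour. Gast was at 3.14, 3.08, 3.05, 3.40, 8.03, 6.40 and 8.78 in samples 1 to 7, against 13.49 and 12.56 in stomach cells. Samples 1 to 4 were at background and samples 5 to 7 were not. All 7 lay under both stomach samples, but the share of all genes that did so was not counted. Ghrl was 7.68 at the lowest, 10.12 at the median and 12.50 at the highest, against 10.42 and 9.39 in stomach cells, and the groups overlapped. Sst was 5.77 at the lowest, 6.88 at the median and 9.26 at the highest, against 8.97 and 9.29 in stomach cells, and adenoma 4 reached the stomach level. Pyy was 5.43 at the lowest, 6.23 at the median and 9.07 at the highest, against 8.28 and 5.44 in stomach cells.

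Sample by sample, the 3 adenomas with gastrin also had the highest peptide YY and the lowest somatostatin. Samples 5, 6 and 7 had Pyy at 7.92, 9.07 and 8.61 and Sst at 5.77, 6.17 and 5.90. In samples 1 to 4 Pyy ran from 5.43 to 6.23 and Sst from 6.88 to 9.26. Ppy, pancreatic polypeptide, a relative of Pyy, was at 6.15, 5.24 and 7.26 in samples 5 to 7 and no higher than 4.25 in the others. Ghrl was at 7.68 and 7.83 in samples 5 and 6, its lowest levels, and at 10.12 in sample 7. The parietal gene Atp4b, a marker of the stomach body, was also lowest in samples 5 and 6, at 4.64 and 5.48, against 9.05 to 12.57 in the other adenomas. Sample 7 had both Gast, at 8.78, and Atp4b, at 9.37. The region of the stomach from which each adenoma came is not in the labels used here, and these samples were described after their values were seen, with no test.

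Adenoma 4 stood apart from the other 6 in intestinal genes. It had Gip at 7.88, Sct at 6.81 and Gcg at 5.51, each the highest of the 7. The lipid-absorption gene Apoa4 was at 11.77 there, and guanylate cyclase activator 2B, Guca2b, an intestinal peptide, at 9.60. Its mean level of the 10 enterocyte markers measured was 10.13, and the next highest adenoma had 7.08. The same tumour had the highest Ghrl, Sst and Chga of the group, at 12.50, 9.26 and 9.06, and the highest Atp4a, at 12.20.

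**Figure D3:**
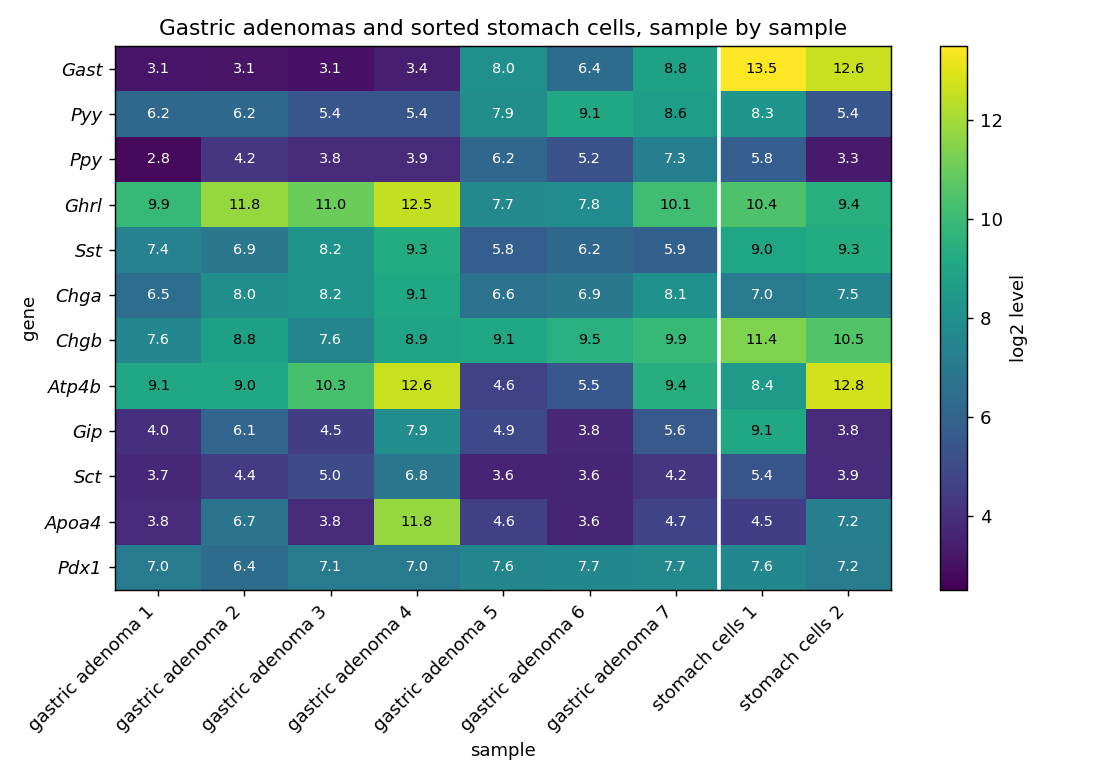
Log2 level of hormone, granule and marker genes (rows) in each of the 7 gastric adenomas and, right of the white line, the 2 sorted stomach samples (columns). Colour and printed value give the level: Gast, Pyy and Ppy are high in adenomas 5 to 7, and Gip, Sct and Apoa4 are highest among the adenomas in adenoma 4.

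Across the 7 adenomas, 2 of the 9 members tested fell against stomach cells and 0 rose (background 11.1% called in either direction and 3.07% lower). These were Gast (-7.90 ± 1.60 SE, adjusted p = 0.011) and Chgb (-2.19 ± 0.59 SE, adjusted p = 0.032). Chgb was 7.56 at the lowest, 8.94 at the median and 9.89 at the highest in adenomas, against 11.39 and 10.50 in stomach cells. The groups did not overlap for Chgb, but how many of all genes did not overlap was not counted. Both calls were lost with array weights, and when either stomach sample was left out: the adjusted p for Gast was then 0.069 without sample 1 and 0.056 without sample 2, and for Chgb 0.19 and 0.076, and Chgb also missed without adenoma 2 (0.053). Chga (0.35 ± 0.62), Ghrl (0.21 ± 1.17), Pyy (0.13 ± 1.09) and Sst (-2.05 ± 0.82) did not pass, and with standard errors of 0.62 to 1.17 a difference of 1 log2 unit was not resolved. Sst passed as lower with all samples in the fit (adjusted p = 8.8e-05) and without adenoma 4 (0.023). Cck was 2.69 at the lowest, 3.04 at the median and 3.41 at the highest in adenomas, against 6.96 and 3.43 in stomach cells (-2.14 ± 0.67 SE, adjusted p = 0.055). It missed the threshold, but passed as lower after median centring (adjusted p = 0.026), with all samples in the fit (0.0084) and without stomach sample 2 (-3.90, adjusted p = 0.00045). Gip (-1.22 ± 1.31) and Sct (-0.13 ± 0.78) did not pass. Gcg was under the filter in both groups and was not tested.

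A minority of the other endocrine genes fell in gastric adenoma, where 3.07% of all genes tested were called lower. Of the 10 granule genes tested, 0 rose, 3 fell and 7 did not pass: Resp18 by 3.95, Scg5 by 2.52 and Scg3, secretogranin III, by 1.56. Ptprn2, of the same list, was at 8.83 to 10.94 in adenomas, against 9.33 and 9.29 in stomach cells. Of the 8 transcription factors tested, 0 rose, 2 fell and 6 did not pass: Neurod1 was at 3.39 to 4.34 in adenomas, against 7.09 and 5.19 in stomach cells (-2.29 ± 0.44 SE, adjusted p = 0.009), and Etv1 fell by 1.43. Isl1 did not pass and was at 4.67 to 8.87 in adenomas, against 6.89 and 6.49 in stomach cells. Parietal (0 of 6 tested), pit (0 of 5) and chief cell markers (1 of 7 lower, Pgc) mostly did not pass, while the fibroblast markers had 4 higher, 0 lower and 2 not called of 6 tested, with mean levels of 5.86 to 7.79 in adenomas, against 3.99 to 4.47 in stomach cells. The part of these other cells in the fall of Gast and Chgb was not tested.

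Gastric adenocarcinomas were almost without gut endocrine transcripts. Gast was at 2.64, 2.81, 2.72 and 2.83 in the 4 tumours, against 13.49 and 12.56 in stomach cells (-10.28 ± 0.36 SE, adjusted p = 6.9e-06). Ghrl was at 3.06, 3.15, 2.85 and 2.77, against 10.42 and 9.39 (-6.95 ± 0.38 SE, adjusted p = 3.2e-05), and Sst at 3.18, 3.01, 3.02 and 3.15, against 8.97 and 9.29 in stomach cells (-6.04 ± 0.29 SE, adjusted p = 1.9e-05). Every tumour was under the filter value for these 3 genes. Chga was at 2.86, 2.98, 3.21 and 2.75 (-4.32 ± 0.29 SE, adjusted p = 8.7e-05) and Chgb at 2.76, 3.09, 4.25 and 3.09 (-7.65 ± 0.49 SE, adjusted p = 6.7e-05). Tumour 3 held the only traces above the filter value, in Pyy, at 4.46, and Chgb, at 4.25, and the same tumour had the neuropeptide genes Cartpt at 8.05 and Vip at 10.10, which were at background in the other 3.

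Of the 9 members tested, 7 fell and 0 rose, against a background of 28.4% in either direction and 10.5% lower, and the median difference was -4.32, against 0.18 over all genes. Each passed the filter only through the stomach samples, so the count is no separate support. Gip (-3.32 ± 1.17) and Sct (-1.05 ± 0.41) did not pass. Gip passed as lower after median centring (adjusted p = 0.037), with all samples in the fit (0.00032) and without stomach sample 2 (-5.94, adjusted p = 0.00032), and Sct after median centring (0.021) and without stomach sample 2 (-1.79, adjusted p = 0.0082). Cck (-2.51 ± 0.81 SE, adjusted p = 0.047) lost its call in 3 alternatives and when any of the 4 tumours was left out. Pyy (-3.49 ± 0.77 SE, adjusted p = 0.013) missed without stomach sample 1 (adjusted p = 0.056), where 5 members were called. Gast, Ghrl, Sst, Chga and Chgb kept their calls throughout. The lower levels were not confined to endocrine genes. Parietal markers had 0 higher, 5 lower and 0 not called of 5 tested. Chief and neck markers had 0 higher, 4 lower and 3 not called of 7 tested. Pit markers had 0 higher, 4 lower and 1 not called of 5 tested. Fibroblast markers had 7 higher, 0 lower and 0 not called of 7 tested. The mean level of the fibroblast markers was 7.62 to 8.35 in adenocarcinomas, against 3.99 to 4.47 in stomach cells, and their part was not tested.

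Against gastric adenoma, which was extracted in the same way, the adenocarcinomas had 7 members lower and 0 higher of 8 tested, where 25.2% of all genes were called in either direction and 11.4% lower. All members were under the filter value in the mean of the adenocarcinomas and were tested only through the adenomas, so they could come out only lower or not called, and the count is no separate support. Ghrl (-7.15 ± 0.53 SE, adjusted p = 4.6e-15), Chgb (-5.46 ± 0.40 SE, adjusted p = 4.4e-15), Chga (-4.67 ± 0.29 SE, adjusted p = 1.3e-17), Sst (-3.99 ± 0.36 SE, adjusted p = 1.8e-12) and Pyy (-3.61 ± 0.49 SE, adjusted p = 6.3e-08) fell with no overlap of the 4 carcinomas and the 7 adenomas. Gip (carcinomas up to 3.42, adenomas from 3.78) and Gast (up to 2.83, from 3.05) did not overlap either, with gaps under the filter value. How many of all genes did not overlap was not counted. Gip (-2.10 ± 0.60 SE, adjusted p = 0.0039) fell less, and Gast (-2.38 ± 0.58 SE, adjusted p = 0.00092), at background in 4 of the adenomas, missed in a fit of the compared groups alone (adjusted p = 0.11). Of the 8 granule genes tested, 2 rose, 3 fell and 3 did not pass, with Ptprn2 (-5.38 ± 0.43) and Scg5 (-2.37 ± 0.48) lower and Cpe (2.57 ± 0.82) and Ptprn (2.47 ± 0.22) higher. Ddc (-2.24 ± 0.62), Gch1 (-1.99 ± 0.52) and Tph1 (-1.75 ± 0.37) fell, of 5 amine genes tested. The gastric epithelial lists fell as well, with parietal markers at 0 higher, 6 lower and 0 not called of 6 tested and pit markers at 0 higher, 5 lower and 0 not called of 5 tested.

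A single liver metastasis of gastric adenocarcinoma had the highest Chga of all samples in the series, and for Chgb it was passed only by stomach sample 1. Chga was at 10.64 in it, against 2.75 to 3.21 in the 4 primary carcinomas, and Chgb at 11.32, against 2.76 to 4.25. All 8 hormone genes stayed under the filter value there, from 2.55 to 3.65. Granule genes accompanied the chromogranins: Scg2 was at 11.27, against 3.04 to 5.50 in the primary carcinomas, Scg5 at 7.70, against 2.75 to 3.92, Resp18 at 7.71, against 2.63 to 3.45, and Pcsk1n, the inhibitor of the convertase, at 7.20, against 3.01 to 3.46. Synaptic secretion genes Snap25, at 5.92, and Rab3c, at 6.26, were also above the filter value, as was the transcription factor Isl1, at 6.03. Neurog3, at 2.56, Neurod1, at 2.86, and Pcsk1, at 4.01, were not. The hepatocyte gene Alb was at 7.84 in this sample, against 3.46 to 7.23 in the primary carcinomas.

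The abdomen metastasis lacked this set, with Chga at 3.10 and Chgb at 2.81. It did hold Tph1, at 6.89, against 2.84 to 4.54 in the primary carcinomas. Scg2 was at 6.76 in it, to be set against the range of Scg2 in the primary carcinomas given above. With 1 sample each, neither metastasis has a replicate check, no test was made, and the labels do not say from which primary tumour they came.

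**Figure D4:**
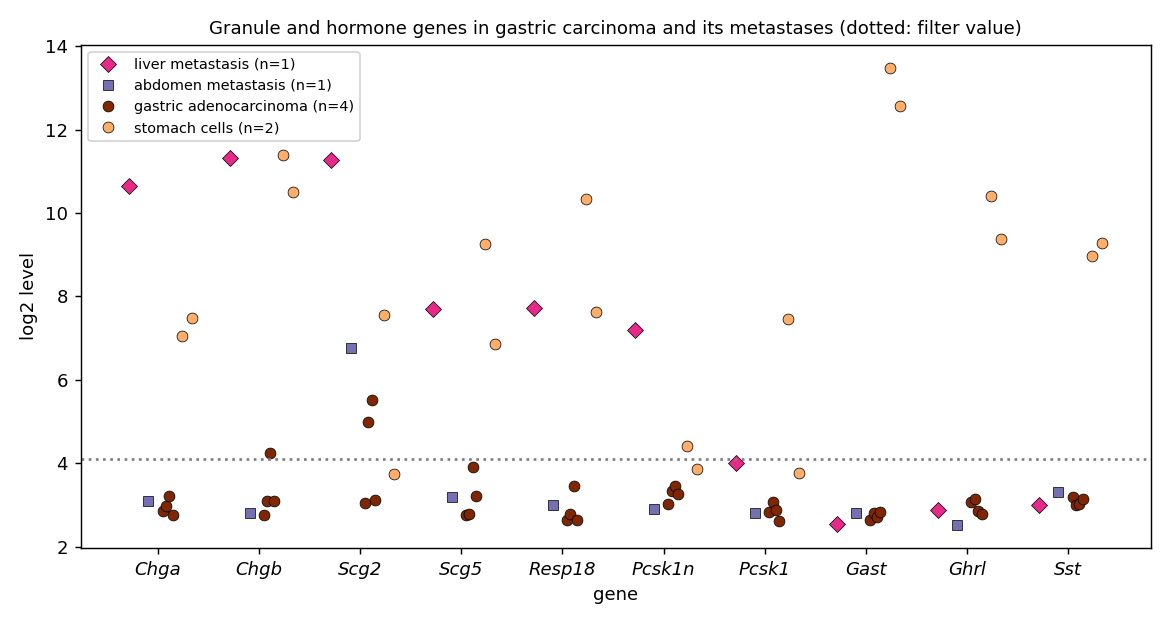
Log2 level of chromogranin, granule and hormone genes in the liver metastasis (diamonds), the abdomen metastasis (squares), the 4 primary gastric adenocarcinomas and the 2 sorted stomach samples (circles), with the filter value dotted. The liver metastasis is at 10.64 for Chga and 2.55 for Gast, and all 4 primary carcinomas are under 4.10 for Chga.

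Small intestinal adenomas had lower levels of most hormone genes than sorted small intestine cells. Gip was at 3.40, 7.80 and 3.39, against 9.57, 10.12 and 10.10 in small intestine cells (-5.07 ± 1.12 SE, adjusted p = 0.014). Gcg was at 2.49, 3.05 and 2.62, against 6.82, 7.52 and 7.27 (-4.48 ± 0.28 SE, adjusted p = 0.0003), and Cck at 3.15, 5.57 and 3.46, against 8.06, 8.72 and 7.69 in small intestine cells (-4.10 ± 0.64 SE, adjusted p = 0.0045). Adenoma 2 had the highest Gip, Cck and Sct of the 3, while Gcg was at background in all. Sst (-3.82 ± 0.42 SE, adjusted p = 0.0014), Sct (-3.28 ± 0.56 SE, adjusted p = 0.0061), Chgb (-2.31 ± 0.47 SE, adjusted p = 0.011) and Chga (-1.74 ± 0.32 SE, adjusted p = 0.0081) fell too. Chgb remained well above the filter value, at 8.08, 8.17 and 6.70, against 9.38, 9.83 and 10.68 in small intestine cells.

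Of 10 members tested, 7 fell and 0 rose, against a background of 8.43% lower. Gast, Gcg and Sst passed the filter only through small intestine cells and could come out only lower or not called, so the count is no separate support. The median member difference was -2.80, against 0.12 over all genes tested. Gast (-1.78 ± 0.65), Ghrl (-1.91 ± 0.68) and Pyy (1.18 ± 0.60) did not pass. Gast passed as lower after median centring (adjusted p = 0.034), with all samples in the fit (0.029), with array weights (0.031) and without small intestine sample 2 (-2.57, adjusted p = 0.0071). Ghrl passed as lower in the same 3 alternatives (adjusted p = 0.033, 0.0081 and 0.034), after quantile normalization (0.046) and without adenoma 1 (0.047). Pyy was at 5.84, 3.96 and 6.31 in the adenomas, against 4.05, 4.65 and 3.88 in small intestine cells, and passed as higher with array weights (1.67) and without adenoma 2, at background for Pyy (1.88). Gip missed without small intestine sample 3 (adjusted p = 0.053). Adenoma 2 also differed in enterocyte genes: the mean of the 10 markers measured was 5.88, 9.94 and 6.42 in the adenomas, against 11.38 to 12.35 in small intestine cells. Of the 7 transcription factors tested, 1 rose, 4 fell and 2 did not pass, with Mlxipl (-3.64 ± 0.67), Neurod1 (-2.35 ± 0.46) and Neurog3, the factor that starts the endocrine lineage (-1.95 ± 0.60), lower and Hhex (2.51 ± 0.28) higher. Acinar markers had 0 higher, 6 lower and 0 not called of 6 tested, with a mean of 2.96 to 3.14 in adenomas, against 6.16 to 8.45 in small intestine cells, and fibroblast markers 5 higher, 0 lower and 1 not called of 6 tested. Their part in the hormone differences was not tested.

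As deposited the median difference of all genes was 0.11 for gastric adenoma, 0.18 for gastric adenocarcinoma and 0.12 for small intestinal adenoma. The share of higher genes among all genes called in these 3 comparisons of gut tumours with sorted cells depended on scaling. It was 72.5% for gastric adenoma as deposited, 54.0% after quantile normalization and 37.3% after median centring, 63.0%, 50.9% and 33.6% for gastric adenocarcinoma, and 61.7%, 53.8% and 34.3% for small intestinal adenoma. The median difference of all genes was -0.22, -0.31 and -0.30 in these 3 comparisons after median centring. The members called in these comparisons kept their direction under both scalings.

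**Figure D5:**
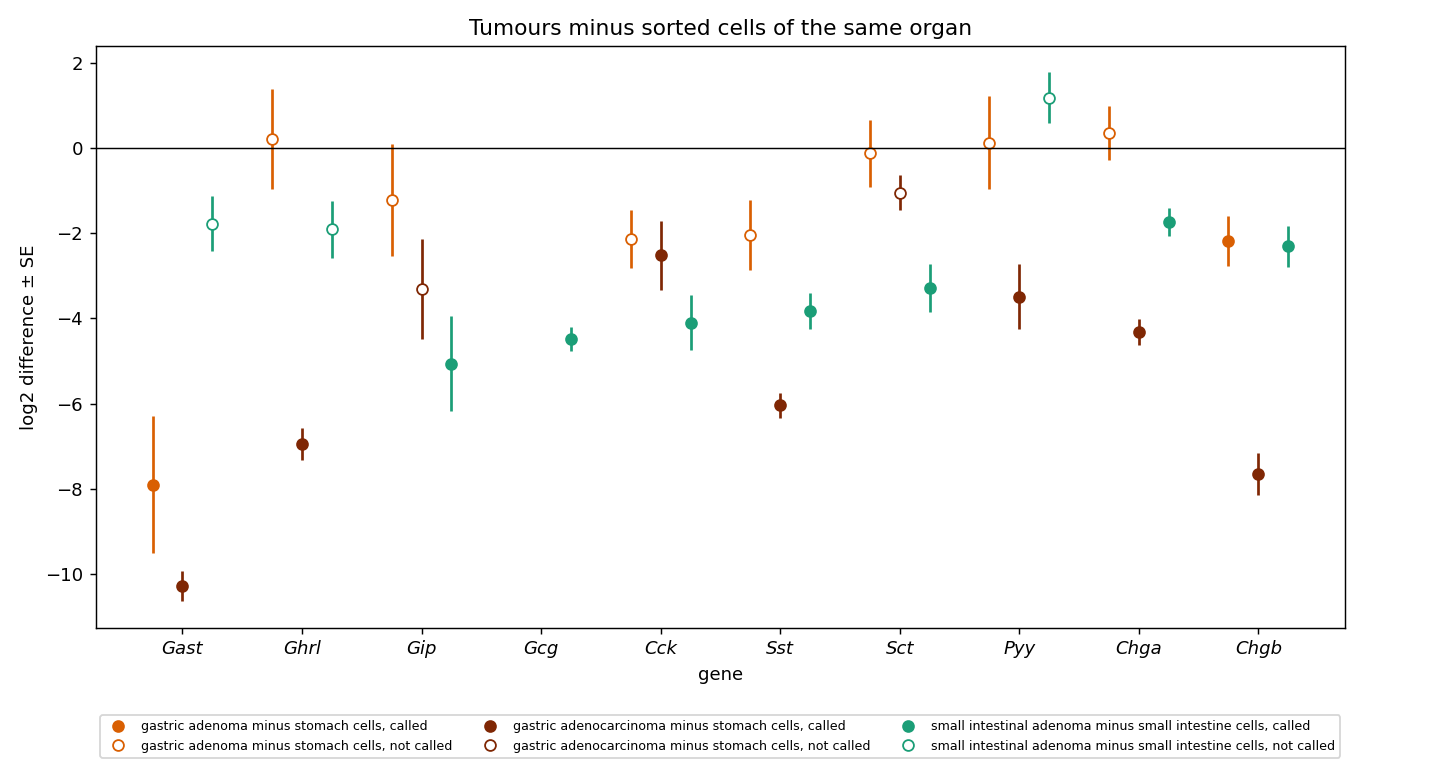
Log2 difference ± SE of each member for gastric adenoma and gastric adenocarcinoma minus stomach cells and for small intestinal adenoma minus small intestine cells (filled: passed the test; open: did not pass). No filled point lies above 0. Gcg has no point for either gastric comparison because it was under the filter there.

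The change in gastric adenoma was set against that in small intestinal adenoma by the difference between them. Gcg alone passed (3.96 ± 0.83 SE, adjusted p = 0.0086, 1 of 10 members against a background of 11.6%). Gcg entered this test only through small intestine cells, so the value largely restates its fall in small intestinal adenoma against gastric levels near background. Of the gastric samples only adenoma 4 and stomach sample 1, at 4.45, were above the filter value. For Gast the difference was -6.12 ± 2.01 (SE, adjusted p = 0.059), and it passed under the 60th percentile filter, with all samples of the series in the fit and without gastric adenoma 5 or 7. Sct (3.15 ± 1.08 SE, adjusted p = 0.067) missed the threshold but passed with all samples in the fit, with array weights and without gastric adenoma 4 or small intestinal adenoma 2, in which it was highest. Gip (3.85 ± 1.91 SE, adjusted p = 0.19) and the other members did not pass, although Gip, Sst and Chga passed with all samples in the fit and Cck without stomach sample 1 (3.72).

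Large intestinal adenomas, for which no sorted colon cells were measured, carried the L cell genes Pyy and Gcg together with Sct. Pyy was at 9.65, 8.07, 7.64, 8.72 and 8.26, Gcg at 6.34, 8.38, 5.63, 8.34 and 7.23 and Sct at 7.11, 8.03, 6.10, 6.56 and 7.46 in the 5 tumours. All 5 were well above the filter value for these genes and for Chgb, at 9.89, 8.99, 9.48, 9.55 and 9.96. Cck was uneven, at 7.38, 4.65, 6.13, 6.14 and 3.13, and Gip was above the filter value only in adenoma 1, at 7.75, against 2.90 to 3.73 in the other 4. Adenoma 1 also had the highest Cck and Pyy and the highest enterocyte mean, 10.25, and adenoma 5, with the lowest Cck, had the lowest, 5.69. Nts, neurotensin of the lower gut, was at 9.62, 4.99, 8.98, 10.16 and 8.01, and Guca2a, guanylin, at 12.20, 12.99, 12.73, 12.11 and 13.09.

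Small intestinal adenomas had less of the endocrine genes than large intestinal adenomas. Gcg averaged 2.72 ± 0.30 (SD, n = 3) in small and 7.18 ± 1.22 (SD, n = 5) in large intestinal adenoma, a difference of -4.46 ± 0.40 (SE, adjusted p = 1.6e-11). Pyy differed by -3.10 ± 0.57 (SE, adjusted p = 0.00011), Sct by -1.85 ± 0.44 (SE, adjusted p = 0.0023), Chgb by -1.92 ± 0.47 (SE, adjusted p = 0.0032), Chga by -1.29 ± 0.34 (SE, adjusted p = 0.0061) and Sst by -1.18 ± 0.42 (SE, adjusted p = 0.037). The tumours did not overlap for Gcg, Pyy, Chga and Chgb, but how many of all genes did not overlap was not counted. In all, 6 of 9 tested were lower and 0 higher, at a background of 12.9% in either direction and 6.60% lower. Gcg, Sst and Cck passed the filter only through large intestinal adenoma. They could come out only lower or not called, so the count is no separate support. Sst lost its call in 3 alternatives and without large adenoma 1 or 4 or small adenoma 1 or 3, and without small adenoma 3 the calls for Chga (adjusted p = 0.09) and Chgb (0.071) were lost too, leaving 3 members. Gip (0.60 ± 0.70), Cck (-1.43 ± 0.64) and Ghrl (0.41 ± 0.62) did not pass. Cck passed as lower with array weights (-2.13), without large adenoma 5 (-2.01) and without small adenoma 2 (-2.18). Guca2a (-5.62 ± 1.10), Nts (-4.98 ± 0.65) and Guca2b (-3.75 ± 1.24) were lower as well, of 5 other gut peptides tested, and Pdx1, a factor of the duodenum, was higher (1.88 ± 0.59).

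Taking the 2 gastric tumour types together against the 2 intestinal adenoma types, Ghrl was higher (2.12 ± 0.41 SE, adjusted p = 8e-05) and 5 members were lower, of 10 tested (background 11.7%). These were Chgb (-2.59 ± 0.31 SE, adjusted p = 8.6e-09), Sct (-2.09 ± 0.29 SE, adjusted p = 1.9e-07), Cck (-1.90 ± 0.42 SE, adjusted p = 0.00051), Gcg (-1.85 ± 0.26 SE, adjusted p = 4.4e-07) and Pyy (-1.74 ± 0.37 SE, adjusted p = 0.00035). The gastric mean combines adenomas with adenocarcinomas, in which the members were near background. Gcg and Cck passed the filter only through the intestinal adenomas, so this count is no separate support either. Against all other primary tumours, the gut tumours had 7 of 10 members higher and 0 lower, at a background of 6.54% higher. Gip, Gcg, Sst, Pyy, Chga and Chgb passed the filter only through gut tumours, so the count is no separate support. Chgb was highest among these differences (4.09 ± 0.21 SE, adjusted p = 7.2e-22), followed by Pyy (2.69 ± 0.25 SE, adjusted p = 6.9e-13), Ghrl (2.23 ± 0.27 SE, adjusted p = 1.6e-09) and Chga (2.21 ± 0.15 SE, adjusted p = 3.6e-17). Gip (1.05 ± 0.30 SE, adjusted p = 0.0037) lost its call with array weights and without gastric adenoma 4, small intestinal adenoma 2, large intestinal adenoma 1 or hepatoblastoma 1. Receptors for the gut hormones were mostly under the filter: of 13 measured, 5 were tested in this comparison, 0 rose and 1 fell, Gcgr, the glucagon receptor (-1.46 ± 0.23).

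Outside the gut, 3 members were found in a few samples. Cck reached 1 log2 unit above the filter value in 6 of 77 samples: in prostatic adenocarcinoma it was 2.68 at the lowest, 4.93 at the median and 6.23 at the highest, against 2.70, 2.86 and 2.69 in prostate cells (1.88 ± 0.70 SE, adjusted p = 0.051), and 2 of 4 perineal squamous cell carcinomas reached 5.48 and 5.71. The prostate difference did not pass, although it passed after quantile normalization, with all samples of the series in the fit, with array weights and without tumour 7 or 8. Sct was at 6.68 in the lung metastasis of hepatoblastoma, against 6.05 and 4.37 in the 2 primary hepatoblastomas, and at 6.20, 4.04 and 4.40 in prostate cells. It was lower in prostatic adenocarcinoma (-1.12 ± 0.40 SE, adjusted p = 0.041, 3.50 to 4.55 in tumours), a call lost when any of 6 tumours or prostate sample 1 was left out: without prostate sample 1 the difference was -0.46. Chgb was at 6.36 in prostatic adenocarcinoma 2, and no higher than 3.34 in the other 7, against 5.95, 3.77 and 4.08 in prostate cells. That made 1 of 3 members tested in the prostate, where 21.1% of genes were called.

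In the liver only Sct passed the filter, and it was called in none of 3 comparisons. HCC/CC minus untreated liver cells gave 0.05 ± 0.18 (background 23.6%), cells after DDC minus untreated cells -0.14 ± 0.26 (background 21.7%) and neonatal minus untreated cells 0.41 ± 0.34 (background 30.7%). These 3 comparisons share the untreated liver cells. The other 9 members were at or near background in all liver groups and were not tested.

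The genes whose group means followed each member most closely over the 29 groups are given as descriptions, with Pearson correlations, and share arrays and tissue make-up. For Gast they were Pgc (0.97), Nkx6-2 (0.95) and Sdk2 (0.93), the first the pepsinogen C gene of the stomach. Ghrl was closest to Sst (0.93), Nkx6-3 (0.93) and Gsdma2 (0.92), and Sst to Clps (0.96), Neurod1 (0.93) and Ghrl (0.93), in which Clps is the pancreatic colipase gene. Chga and Chgb were closest to each other (0.94), and both were next closest to Resp18, at 0.85 for Chga and 0.80 for Chgb. Gip was closest to Mptx1 (0.89), 2010106E10Rik (0.88) and Slc5a4a (0.88), Gcg to Gm5485 (0.93), Zg16 (0.90) and Tpsg1 (0.89), Cck to Ldb3 (0.86), Gip (0.85) and Ms4a18 (0.84), Sct to Tmem236 (0.89), Ccl25 (0.86) and Ms4a18 (0.85) and Pyy to Pla2g10 (0.90), Rep15 (0.86) and Myo1a (0.85). Zg16, beside Gcg, is a goblet cell gene.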

How the data were processed

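RNA of 40 Prominin1-sorted cell samples (PicoPure kit) and 63 tumours or metastases (RNeasy kit) was hybridised to 1 Affymetrix array each, per the labels' protocols. The authors deposited log2 values, ranging from 1.85 to 14.36, for 45141 probe sets. Partek 6.6 was used, per the submitters' processing notes, while the sources used here do not give the background correction, the normalization or the annotation build. No further scaling was applied. Probe sets with 1 gene in the platform annotation were kept (28898, of which 28689 matched RefSeq), 551 with several genes and 15588 unnamed were left out, and each gene was represented by its probe set with the highest mean, 17097 genes in all. Each of the 10 members has 1 probe set.

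Samples were grouped by their labels. A gene was tested where at least 1 compared group's mean reached the 40th percentile of the fitted values. Differences were fitted with limma 3.58.1 (R 4.3.3; the package data.table had version 1.17.8) with an intensity trend on the log2 values. The 40 sorted samples shared a fit, as did the 55 primary tumours of groups with at least 2 samples, and tumours were set against sorted cells in fits of the compared groups alone. The p-values were adjusted over all tested genes (Benjamini-Hochberg), and a call required an absolute log2 difference of at least 1 and an adjusted p under 0.05. Means of groups weighted the groups equally. Figures were drawn with matplotlib 3.10.9, tables and sequences were handled with pandas 2.3.3 and numpy 2.4.6 under Python 3.11.15, and the fits were tested on simulated data. Named genes are the members, up to 4 called genes of a list with the largest difference, markers set beside a result, and the 3 most correlated genes over group means. The members and lists were chosen with earlier results of these data known. No count depth exists for arrays, so the number of arrays limits the precision. Alternatives are named in the closing section.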

Additional observations from a re-analysis of the deposited data

Results flagged for a closer look

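Gcg was at 5.51 in gastric adenoma 4, against 2.58 to 3.30 in the other 6, a gap that exceeds Dixon's critical value. Gip was at 7.75 in large intestinal adenoma 1, against 2.90 to 3.73 in the other 4, and Chgb was at 6.36 in prostatic adenocarcinoma 2, against 2.91 to 3.34 in the other 7. Of 21 sets of sample values examined in this way 3 stood out. Only sets with a highest value at least 1 log2 unit above the filter value were examined. For sets chosen in this way the rate of flags by chance is not known.

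The change of Gcg in gastric adenoma differed from that in small intestinal adenoma by 3.96 ± 0.83 (SE, adjusted p = 0.0086). Gcg was under the filter in the means of both gastric groups and entered this test only through small intestine cells, so the value largely restates its fall in small intestinal adenoma (-4.48 ± 0.28).

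Single metastases, which enter no test, carried signals above those of the primary tumours of the same class, which the labels do not tie to them. Chga was at 10.64 and Chgb at 11.32 in the liver metastasis of gastric adenocarcinoma, against 2.75 to 3.21 for Chga and 2.76 to 4.25 for Chgb in 4 primary carcinomas. Sct was at 6.68 in the lung metastasis of hepatoblastoma, against 6.05 and 4.37 in the primary tumours.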

How the results depend on the processing

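Of 68 called member differences, 61 kept their call under each of the 10 alternatives that left no sample out (quantile normalization, median centring, other low-value filters, other probe set rules, other sets of samples in the fit, array weights and a robust prior), 55 kept it with each sample left out in turn, and 54 in all. Among those not called, 23 gained a call somewhere. The number of members called for gastric adenoma minus stomach cells, 2, was 4 with all samples in the fit and 0 with array weights, which also took all genes called to 730, against 1220 in the reported fit. For the difference of the gastric and small intestinal adenoma changes, 1 member was called, against 2 with the 60th percentile filter, 6 with all samples and 2 with array weights. In the prostate, 1 member was called, against 2 after quantile normalization, 0 with the 60th percentile filter, 3 with all samples and 2 with array weights. For small intestinal minus large intestinal adenoma, all genes called were 934 with the 60th percentile filter, against 1405 in the reported fit. With 1 sample left out at a time, members called ranged from 0 to 3 for gastric adenoma, 1 to 2 for the difference of the adenoma changes, 3 to 7 for small minus large intestinal adenoma and 0 to 2 in the prostate. All genes called ranged from 1469 to 2614 for stomach cells minus the other organs, 797 to 1399 for gastric adenoma, 1957 to 3013 for gastric adenocarcinoma minus stomach cells, 647 to 1767 for the difference of the adenoma changes and 746 to 1434 for small minus large intestinal adenoma. Where a group was left with 1 sample, its spread was taken to be that of the other groups. Without stomach replicate 1, Gip (-0.46) and Cck (-0.17) reversed in stomach cells minus the other organs, and over all left-out samples they ranged up to 4.79 for Gip and 3.37 for Cck. Members called there without it were 6, 9 in stomach minus small intestine cells, 0 for gastric adenoma and 5 for gastric adenocarcinoma. These are the values of stomach sample 2 alone. Outside the gut, median centring took the share of higher calls to 37.9%, against 58.8% as deposited, in the prostate, 39.8%, against 73.6%, in HCC/CC, 42.4%, against 74.7%, after DDC and 36.6%, against 71.9%, in neonatal liver cells, and quantile normalization gave 49.8% in HCC/CC, 54.1% after DDC and 51.0% in neonatal liver cells. The cause of these changes was not tested. Signals near background and groups of 2 to 3 samples limit what can be seen. No paired analysis was possible because the labels give no replicate numbers that could pair samples across groups.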

Other observations

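Beyond the comparisons, genes for other gut peptides and for nutrient sensing were read in the same samples. Nts was at 4.77, 4.81 and 3.71 in small intestine cells, and Trpa1, an ion channel of enterochromaffin cells, was higher in gut tumours than in the other primary tumours (1.19 ± 0.16 SE, adjusted p = 1.2e-08). Of 4 nutrient-sensing receptor genes tested there, it was the 1 that passed, where 6.54% of all genes tested were called higher. With 4 genes tested, this count says little about the list, of which 6 of 12 were measured. Ppy, which is classically a hormone of the pancreatic islet, was at 6.15, 5.24 and 7.26 in gastric adenomas 5 to 7, in which the islet genes Ins2, G6pc2 and Slc30a8 ran from 2.53 to 4.21.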
